A study of Homo sapiens with 6 samples.

Results

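DNAJ genes encode J-domain co-chaperones, and 5 of them stood among the 1877 genes of the deposited table. They were taken by name, as every gene called DNAJA, DNAJB or DNAJC followed by digits alone. DNAJA1, DNAJB1, DNAJB4, DNAJB9 and DNAJB13 met that rule, and all 5 were lower after depletion of RNF5. The cells were LP-1, an established line of human myeloma cells. RNF5 was depleted with a short hairpin RNA in 3 libraries, which were set against 3 libraries of LP-1 cells labelled as control, called non-target in the design text. The labels give the same serum-containing medium for all 6 libraries. The labels name neither the hairpin sequence nor the time after its delivery. They also leave unsaid whether replicate libraries came from separate cultures, so the p-values measure only how these libraries spread.

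A J domain binds HSP70 and stimulates its ATP hydrolysis, which locks the HSP70 onto an unfolded client. Class A proteins such as DNAJA1 carry a zinc-finger-like region beside the J domain and a glycine/phenylalanine-rich stretch, class B proteins such as DNAJB1 lack the zinc-finger-like region, and class C proteins share the J domain alone. Many cytosolic members are induced through heat shock factor 1, whereas members of the endoplasmic reticulum assist the luminal HSP70 protein BiP and respond to unfolded proteins there. Plasma cells and myeloma cells secrete immunoglobulin and depend on both folding systems. The study's title joins RNF5, a membrane-bound ubiquitin ligase, to DNAJA1.

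The authors had already selected every gene in the table as differing between these same libraries. Membership in the table therefore fixed that each DNAJ gene would differ, and the tests below are not independent evidence of a change. Values per library are a normalized signal of a scale that the sources used here do not give, and sequencing depth is unknown. Levels of different genes are therefore not ranked against each other. Each gene, and each ratio or sum of genes, is compared only between libraries. Changes were fitted with limma on log2(value + 1), a scale that understates the change of low genes, and genes were called at p under 0.05 after Benjamini-Hochberg adjustment over the 1290 genes tested. RNF5 itself stood at 95.4, 81.4 and 88.4 in the knockdown libraries, against 1595, 1649 and 1248 in the control libraries. The ratio of library means lay above the fold change in the authors' deposited table by a median of 0.173 on the log2 scale (431 genes), and the falls given here should be read against that shift. Of 11 plasma cell markers 3 were in the table. SDC1 averaged 35.5 ± 1.16 in the knockdown and 12.1 ± 2.66 in the control (SD, n = 3 each). CD28 averaged 20.0 ± 2.0 in the knockdown and 6.26 ± 1.01 in the control. ITGB7 averaged 1708 ± 45.8 in the knockdown and 351 ± 92.5 in the control. The summed values of the 3, mostly ITGB7 on this scale, were 1719 to 1812 in knockdown libraries and 258 to 431 in control libraries. No gene of the lists for T and NK cells, myeloid cells, or erythroid cells and platelets was in the table (0 of 20 genes). CD28 was counted in the plasma cell list alone. Only 6.36% of protein-coding genes were listed at all, so absence from the table does not show that a transcript was absent. COL1A1, 1 of 6 fibroblast markers, stood at 0.07 to 0.44 in knockdown libraries and 0.47 to 0.72 in control libraries. CLDN4, 1 of 6 epithelial markers, stood at 1.29 to 1.48 in knockdown libraries and 1.85 to 3.17 in control libraries. The part of these markers in the DNAJ changes was not tested.

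Promoters of the DNAJ genes were read from RefSeq (GRCh38.p14) as 250 bases before to 50 bases after each annotated start, and all 5 genes matched, with 8 starts among them. They are shown because heat shock genes are known to carry a short repeated site for heat shock factor 1. Whether that factor had a part in the falls was not tested. The letters searched were a 2-unit heat shock element, GAANNTTC or TTCNNGAA, and a 3-unit element, GAANNTTCNNGAA or TTCNNGAANNTTC, on both strands. Each 3-unit match also holds overlapping 2-unit matches. Of all 35116 RefSeq promoters of this length, 13.5% held the 2-unit letters and 0.490% the 3-unit letters. For the endoplasmic reticulum stress response, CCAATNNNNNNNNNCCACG (0.0769% of promoters) and TGACGTGG (0.729%) were searched as well. A match describes letters in a window and does not show binding.

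DNAJA1, a class A co-chaperone of cytosolic HSP70 that is farnesylated at its carboxyl terminus, was the only listed class A gene. DNAJA1 (ENSG00000086061) stood at 36.0, 41.4 and 37.8 in the knockdown libraries, against 93.6, 80.9 and 71.3 in the control libraries. The groups were well apart, since the highest knockdown value was 58.1% of the lowest control value. DNAJA1 averaged 38.4 ± 2.75 in the knockdown and 81.9 ± 11.2 in the control (SD, n = 3 each), so that 46.9% of the control mean was left (log2 fold change -1.07, SE 0.17, limma adjusted p = 0.000145). The knockdown libraries were closer together than the controls, with a coefficient of variation of 7.16% in the knockdown and 13.7% in the control. In bulk RNA, a lower level per cell and a smaller share of cells with the transcript cannot be told apart, here and below. Reference annotation holds 6 pseudogenes of DNAJA1, none of them in the table, and reads that they share with the gene cannot be told apart here.

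The DNAJA1 promoter (chr9:33025023-33025322, plus strand) held a 3-unit heat shock element 4 to 16 bases into the transcript and a further 2-unit element from -198 to -191. Capitals mark both in the sequence below.
DNAJA1: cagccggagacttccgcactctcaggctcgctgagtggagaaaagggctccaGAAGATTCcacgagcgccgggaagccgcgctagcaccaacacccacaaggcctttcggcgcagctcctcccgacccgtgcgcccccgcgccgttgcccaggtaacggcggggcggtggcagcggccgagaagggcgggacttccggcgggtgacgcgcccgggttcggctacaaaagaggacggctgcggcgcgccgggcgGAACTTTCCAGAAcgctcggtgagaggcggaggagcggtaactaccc

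DNAJB1, the classical cytosolic HSP40 and a class B protein that works with HSP70 and HSP110 to pull apart protein aggregates, had the largest fall of the 4 members tested. DNAJB1 (ENSG00000132002) stood at 31.1, 32.6 and 30.6 in the knockdown libraries, against 197, 182 and 132 in the control libraries. The knockdown libraries lay close together, whereas control library 3 was well under the other controls. Means were 31.4 ± 1.09 in the knockdown and 170 ± 33.9 in the control (SD, n = 3 each), a level 5.42-fold lower in the knockdown (log2 fold change -2.38, SE 0.18, limma adjusted p = 1.80e-06). By its fall on the log2(value + 1) scale DNAJB1 was number 10 of the 542 genes that limma called lower, a place that holds after the low-value filter and with the pseudocount of 1. In the same limma order DNAJB9 was number 98, DNAJA1 number 179 and DNAJB4 number 284. By the log2 fold change in the authors' deposited table (-2.61) DNAJB1 was number 270 of the 953 genes they listed as lower. There DNAJB13 was number 402, DNAJB9 number 526, DNAJB4 number 642 and DNAJA1 number 684. DNAJA1 thus had the smallest deposited fall of the members (-1.28), just under that of DNAJB4 (-1.33). The authors' deposited table gave DNAJB1 an adjusted p of 1.34e-125, number 5 of all 1877 genes. A DNAJB1 pseudogene, DNAJB1P1, is annotated, was not in the table, and may share reads with the gene.

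RefSeq lists 3 starts for DNAJB1, counted here along its strand. The second (chr19:14518348-14518647, minus strand) held 2-unit heat shock elements from -77 to -70 and from -47 to -40. The third held 1 such element 2 to 9 bases into the transcript, and the first held none. The second is printed with its elements in capitals, because it holds the most of them.
DNAJB1, start 2: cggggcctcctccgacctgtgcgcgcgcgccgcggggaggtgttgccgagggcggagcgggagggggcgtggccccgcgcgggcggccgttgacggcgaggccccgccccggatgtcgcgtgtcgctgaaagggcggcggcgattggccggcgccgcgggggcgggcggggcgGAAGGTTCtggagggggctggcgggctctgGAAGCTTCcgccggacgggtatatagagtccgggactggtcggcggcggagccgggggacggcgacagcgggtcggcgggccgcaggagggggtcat

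DNAJB4, a class B protein close to DNAJB1 and also a partner of cytosolic HSP70, had the smallest fitted fall of the 4 members tested. DNAJB4 (ENSG00000162616) stood at 5.76, 9.11 and 6.20 in the knockdown libraries, against 13.8, 13.4 and 14.3 in the control libraries. Here the controls were tight (coefficient of variation 3.26%) and the knockdown libraries loose (25.9%), with knockdown library 2 above the other knockdown libraries. The mean was 7.02 ± 1.82 in the knockdown and 13.8 ± 0.451 in the control (SD, n = 3 each), which left 50.8% (log2 fold change -0.91, SE 0.20, limma adjusted p = 0.00115). Of 2 annotated DNAJB4 starts, the second (chr1:78004689-78004988, plus strand) held 1 heat shock element of 2 units from -98 to -91, in capitals below, and the first held none.
DNAJB4, start 2: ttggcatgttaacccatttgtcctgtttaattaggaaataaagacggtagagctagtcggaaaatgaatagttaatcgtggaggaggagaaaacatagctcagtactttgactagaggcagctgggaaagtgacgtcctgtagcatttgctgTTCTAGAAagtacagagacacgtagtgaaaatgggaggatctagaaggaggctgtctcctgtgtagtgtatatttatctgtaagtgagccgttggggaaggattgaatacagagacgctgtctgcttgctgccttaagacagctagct

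DNAJB9, also called ERdj4, sits in the lumen of the endoplasmic reticulum, where it helps BiP with misfolded clients and restrains the stress sensor IRE1. It was the only listed DNAJ gene of that compartment. DNAJB9 (ENSG00000128590) stood at 47.7, 55.5 and 56.1 in the knockdown libraries, against 139, 119 and 141 in the control libraries. Its spread was alike in both groups, at 8.81% of the mean in the knockdown and 9.47% in the control. DNAJB9 averaged 53.1 ± 4.68 in the knockdown and 133 ± 12.6 in the control (SD, n = 3 each), a level 2.51-fold lower in the knockdown (log2 fold change -1.31, SE 0.16, limma adjusted p = 2.99e-05). Its promoter (chr7:108569624-108569923, plus strand) held none of the full heat shock or endoplasmic reticulum stress strings searched and so has no capitals. Parts of those strings were not searched, and CCAAT and CCACG each occur in the sequence below.
DNAJB9: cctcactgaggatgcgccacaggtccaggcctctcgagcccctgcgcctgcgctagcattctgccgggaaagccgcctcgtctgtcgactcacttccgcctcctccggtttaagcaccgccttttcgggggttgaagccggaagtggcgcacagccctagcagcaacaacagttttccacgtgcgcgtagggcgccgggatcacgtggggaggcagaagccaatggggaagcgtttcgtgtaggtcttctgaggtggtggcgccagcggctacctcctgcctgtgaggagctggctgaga

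DNAJB13, known as a protein of the ciliary and sperm axoneme, did not enter the fit, which asked for a value of at least 1 in 3 libraries. DNAJB13 (ENSG00000187726) stood at 0.69, 0.49 and 0.71 in the knockdown libraries, against 2.96, 1.75 and 0.99 in the control libraries. The groups did not overlap, but the controls spread widely and control library 3 was nearest to the knockdown values. The mean was 0.63 ± 0.122 in the knockdown and 1.9 ± 0.994 in the control (SD, n = 3 each). With no filter on low values, limma gave a log2 fold change of -0.78 (SE 0.24, adjusted p = 0.0128 over 1877 genes). The DNAJB13 promoter held none of the letters searched.

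**Figure D1:**
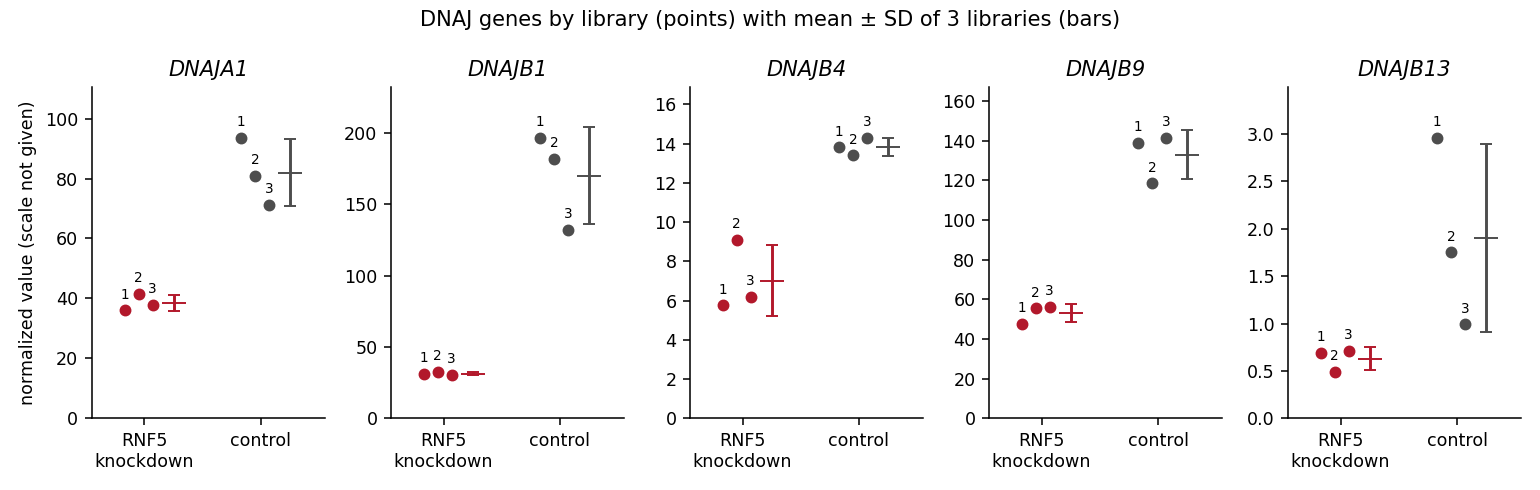
Normalized value (vertical axis, scale not given) of the 5 DNAJ genes in RNF5 knockdown libraries (red) and control libraries (grey), with library numbers above the points and mean ± SD of 3 libraries beside them. No gene's groups overlap, and control library 3 is the lowest control for DNAJA1, DNAJB1 and DNAJB13 and the highest for DNAJB4 and DNAJB9.

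All 4 tested members were called lower, where 42.0% of the tested genes were called lower and 97.7% were called in either direction. The median log2 fold change was -1.19 over these 4 members, against -0.93 over the 542 genes called lower. Over all 1290 genes tested, which mix higher and lower genes, the median was 0.73. In all 5 members every knockdown value lay below every control value, which held for 45.5% of the 1877 listed genes. Groups that did not overlap in either direction made up 93.2% of the listed genes. The exact two-sided permutation test gave p = 0.1 for each of the 5 genes, the smallest that 3 against 3 libraries allow. Because the authors chose the genes on this contrast, these counts describe the members and support nothing further.

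**Figure D2:**
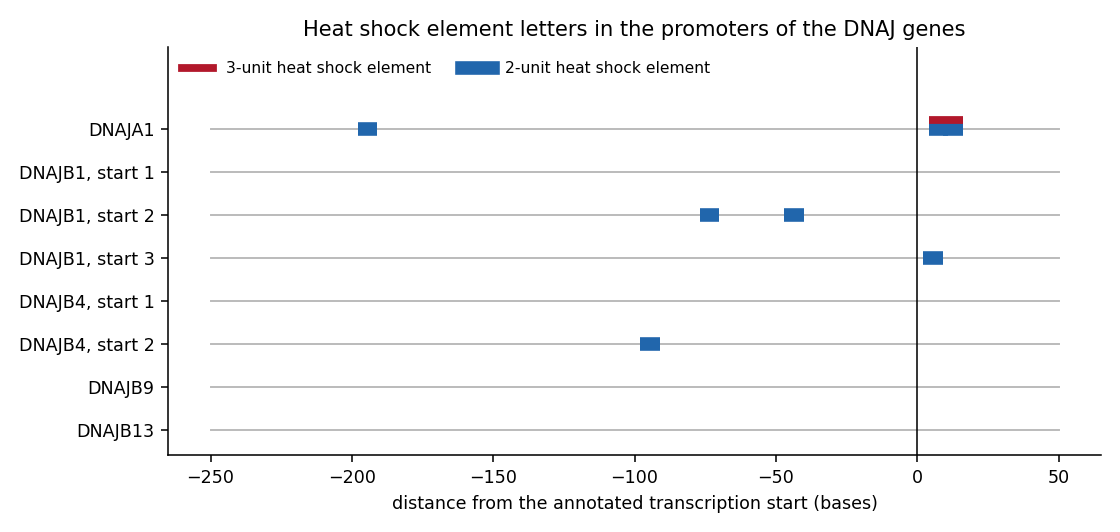
Heat shock element letters along the 8 promoters of the 5 DNAJ genes, from 250 bases before to 50 bases after each annotated start (horizontal axis, bases; the vertical line is the start). Blue bars are 2-unit elements and the red bar is the 3-unit element of DNAJA1, and the promoters of DNAJB9 and DNAJB13 hold neither.

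The DNAJ genes in the table came from classes A and B. Class A had 1 listed gene of 4 named in the reference, class B had 4 of 13, and class C had 0 of 26, and the difference between the classes was not tested. In all, 5 of 43 DNAJ genes were listed (11.6%), every one as lower. Of 19951 protein-coding genes, 6.36% were listed in either direction and 3.77% were listed as lower. With so few DNAJ genes, the distance from these shares was not tested. The other 38 DNAJ genes were not analysed here, and nothing can be said of their level. They include DNAJA2, DNAJB6, DNAJB11 and DNAJC3, which are partners of HSP70 or BiP with roles close to those of the listed genes. No row outside the rule was a DNAJ gene, although 336 rows of the table have no gene name.

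In ratios within libraries, DNAJB1 stood lower in the knockdown relative to 3 of the other members. Such ratios restate the unlike falls given above and are not separate evidence. A ratio of 2 genes within a library does not move with the scaling of that library, and 10 pairs of members were compared in this way. DNAJB1 stood to DNAJA1 as 0.862, 0.788 and 0.808 in the knockdown libraries, against 2.10, 2.25 and 1.85 in the control libraries. The ratio was thus 2.52-fold lower in the knockdown, a log2 difference of -1.33, with SDs on that scale of 0.0667 in the knockdown and 0.143 in the control. DNAJB1 was also lower relative to DNAJB4 (log2 difference -1.41) and to DNAJB9 (-1.09) in the knockdown, again without overlap between the groups. Against DNAJB13 its ratio overlapped between groups (-0.95).

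The other members kept ratios that overlapped between the groups. DNAJB9 to DNAJA1 was 1.32, 1.34 and 1.48 in the knockdown libraries, against 1.49, 1.47 and 1.98 in the control libraries (log2 difference -0.24). DNAJB4 to DNAJA1 was 0.160, 0.220 and 0.164 in the knockdown libraries, against 0.148, 0.166 and 0.201 in the control libraries (0.08). In all, 3 of 10 pairs had groups that did not overlap, each with DNAJB1. Of single listed genes 93.2% did not overlap. The share over pairs of listed genes was not computed, so this count only describes the members. The exact two-sided permutation test gave p = 0.1 for these 3 pairs and between 0.2 and 0.8 for the other 7 (Benjamini-Hochberg adjusted 0.333 and 0.333 to 0.8). The design cannot reach 0.05, and a p that misses it does not show that ratios were equal.

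**Figure D3:**
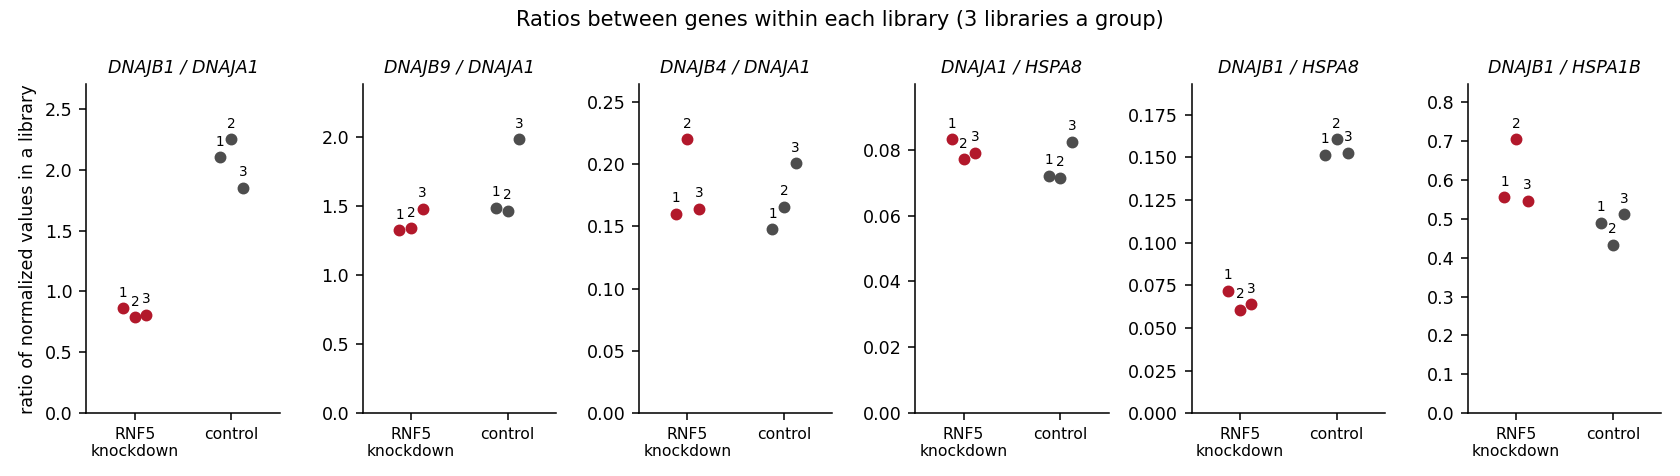
Ratio of the normalized values of 2 genes within each library (vertical axis, no unit) for 6 pairs, in RNF5 knockdown libraries (red) and control libraries (grey), with library numbers above the points. DNAJB1 to DNAJA1 lies between 0.788 and 0.862 in the knockdown and between 1.85 and 2.25 in the control, while DNAJA1 to HSPA8 overlaps between the groups.

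The controls themselves were ordered differently by gene. Control library 3 was the lowest control for DNAJA1, DNAJB1 and DNAJB13 and the highest for DNAJB4 and DNAJB9. It was the lowest control in 307 of 431 genes with both group means of at least 5. Without control library 3 the log2 fold change was -2.55 for DNAJB1, -1.16 for DNAJA1, -1.26 for DNAJB9 and -0.89 for DNAJB4, and all 4 remained called by limma (adjusted p between 1.72e-06 and 0.00287).

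HSP70 proteins are the machines that DNAJ proteins drive. Of 12 HSP70 genes in a list set up for this family, 5 were in the authors' selected table and all 5 transcripts were called lower (median log2 fold change -1.17), while the other 7 have no values here. HSPA8, the constitutive cytosolic HSP70, stood at 433, 537 and 479 in the knockdown libraries, against 1300, 1133 and 866 in the control libraries, with a limma log2 fold change of -1.17 (adjusted p = 8.57e-05). HSPA1B, a stress-induced HSP70, stood at 55.9, 46.4 and 56.0 in the knockdown libraries, against 402, 421 and 258 in the control libraries, with a log2 fold change of -2.72. HSPA6, known for its strict induction by stress, had a log2 fold change of -4.06, and HSPA1L had -0.70. HSPA1A was listed at a mean of 0.92 in the knockdown and 2.18 in the control, and its reads cannot be told apart from those of its near-identical copy HSPA1B. BiP (HSPA5), the partner of DNAJB9, and the mitochondrial HSPA9 were not in the table and are not analysed here.

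The ratio of DNAJA1 to HSPA8 overlapped between the groups, and that of DNAJB1 to HSPA8 did not. DNAJA1 to HSPA8 was 0.0832, 0.0771 and 0.0790 in the knockdown libraries, against 0.0720, 0.0714 and 0.0824 in the control libraries (exact two-sided permutation p = 0.3). DNAJB1 to HSPA8 was 0.0716, 0.0607 and 0.0638 in the knockdown libraries, against 0.151, 0.161 and 0.153 in the control libraries. That ratio was 2.37-fold lower in the knockdown, without overlap. The ratio of DNAJB1 to the inducible HSPA1B changed less (1.25-fold higher in the knockdown). It was 0.555, 0.704 and 0.546 in the knockdown libraries, against 0.490, 0.432 and 0.511 in the control libraries. DNAJA1 to HSPA1B was 3.16-fold higher in the knockdown, and DNAJA1 to HSPH1 was 4.63-fold higher. Of 6 such ratios between DNAJA1 or DNAJB1 and HSPA8, HSPA1B or HSPH1, 5 did not overlap, each with an exact permutation p of 0.1 (Benjamini-Hochberg adjusted over the 6 ratios, 0.12). The share of ratios without overlap among other listed genes was not computed, so this count only describes these ratios.

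Nucleotide exchange factors release the client by opening HSP70 again. Of 13 such genes, 4 were in the authors' selected table and all 4 were called lower (median log2 fold change -1.08), while the other 9 have no values here. HSPH1, an HSP110 protein that acts with DNAJB1 in disaggregation, stood at 15.2, 19.7 and 20.1 in the knockdown libraries, against 224, 162 and 156 in the control libraries, with a log2 fold change of -3.23. DNAJB1 to HSPH1 was 2.05, 1.66 and 1.52 in the knockdown libraries, against 0.877, 1.12 and 0.847 in the control libraries, a ratio 1.84-fold higher in the knockdown. BAG3, which links HSP70 to autophagy, BAG2 and HSPA4L had log2 fold changes of -1.17, -0.82 and -0.98.

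Genes of the HSP90 branch that receives clients from HSP70 and DNAJ proteins made up a further list, of which 4 of 15 were in the table and all 4 were called lower (median -1.27). HSP90AA1, the inducible cytosolic HSP90, had a log2 fold change of -2.30, close to that of DNAJB1. The HSP90 co-chaperone FKBP4 had -1.60, the HSP70-HSP90 adaptor STIP1 had -0.95 and CHORDC1 had -0.66. Among 11 small and chaperonin heat shock proteins and heat shock factors, 3 were listed and called lower, namely HSPB1 (-2.98), the mitochondrial co-chaperonin HSPE1 (-1.27) and the collagen chaperone SERPINH1 (-1.09). The heat shock factors HSF1, HSF2 and HSF4 were not in the table. All 16 listed genes of these 4 lists were thus called lower, where 42.0% of all tested genes were. The authors' selection limits that count as above, and the lists were chosen with earlier results of these data known. The count therefore describes these genes and supports nothing further.

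**Figure D4:**
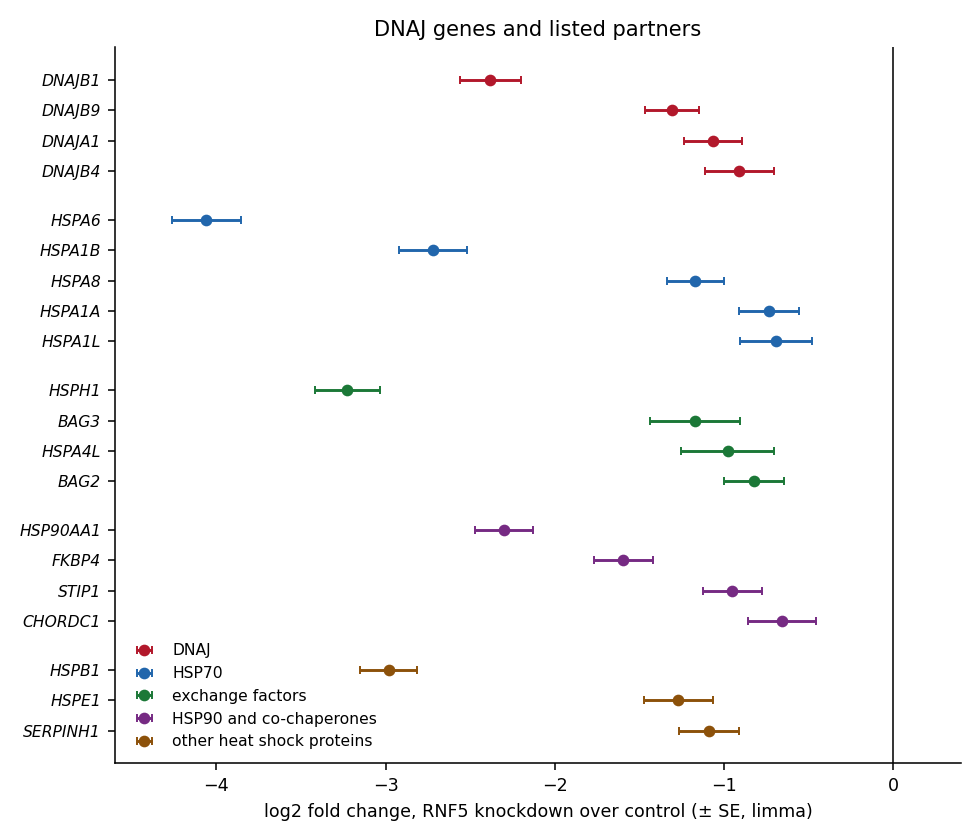
Log2 fold change of RNF5 knockdown over control (horizontal axis, limma on log2(value + 1), bars ± SE, 3 libraries a group) for the 4 tested DNAJ genes and 16 partner genes, coloured by group. All lie below 0, with DNAJB1 at -2.38 near HSP90AA1 at -2.30 and DNAJA1 at -1.07 near HSPA8 at -1.17.

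Among the same partner genes, 15 had a RefSeq promoter, and 12 of these held the 2-unit heat shock letters (80.0%) and 5 the 3-unit letters (CHORDC1, HSP90AA1, HSPA6, HSPA8 and SERPINH1). The partner lists hold many heat shock genes, which are known to carry such sites. Whether the sites had a part in the falls was not tested. Of the 5 DNAJ genes, 3 held the 2-unit letters and DNAJA1 the 3-unit letters. RefSeq promoters were matched by symbol for 592 of the 953 genes listed as lower and 494 of the 924 listed as higher. Among these matched genes, the 2-unit letters stood in 16.9% of those listed as lower and in 14.8% of those listed as higher. The 3-unit letters stood in 1.69% of these genes listed as lower (10 genes) and in 0.607% of those listed as higher (3 genes). The 10 lower genes include DNAJA1 and the 5 partner genes named above, so that share is not separate from theirs. A gene counts here if any of its annotated starts holds the letters, which over all 27305 RefSeq genes gave 16.2% for the 2-unit and 0.608% for the 3-unit letters.

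The genes whose values ran most like those of DNAJA1 and DNAJB1 were sought over the 6 libraries by Pearson's r of log2(value + 1) among 1077 named genes. With only 6 points split into 2 groups, any gene that is clearly lower in the knockdown gives a high r, and the values are a description. LRP12, CTNNAL1, DMGDH, FBXO30 and GPAT3 were most like DNAJA1 (r between 0.997 and 0.999), and 48 genes passed 0.99. LRP12, a receptor of the LDL receptor family, stood at 29.4, 35.6 and 31.3 in the knockdown libraries, against 108, 95.4 and 73.8 in the control libraries, the same order of libraries within each group as for DNAJA1. MYH15, SRXN1, FKBP4, SLC3A2 and RNF149 were most like DNAJB1 (r of at least 0.998). FKBP4, the HSP90 co-chaperone named above, stood at 27.6, 29.1 and 26.2 in the knockdown libraries, against 96.9, 90.4 and 71.2 in the control libraries. DNAJB1 came at place 34 for DNAJA1 (r = 0.992), DNAJB9 at place 172 (0.967) and DNAJB4 at place 274 (0.936).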

How the data were processed

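RNA from 6 LP-1 libraries was sequenced by the submitters. The submitters' processing notes name the tool Bowtie 0.12.2 and the build hg19, with no step. The values per library that the authors deposited are a normalized signal of an unstated scale, and they give no depth. The authors also deposited a fold ratio of knockdown over control, its log2, a p-value and an adjusted p-value. Their test is not named in those sources. The deposited set holds 1877 selected genes. A limma model (version 3.58.1, R 4.3.3) that let the variance follow the mean was fitted on log2(value + 1) to the 1290 genes with a value of at least 1 in 3 libraries, with group as the only term. The fit was tested on simulated data. Ratios within a library had exact permutation tests (scipy 1.17.1). Gene IDs were matched to names in 1857 of 1877 rows. Promoters came from RefSeq (GRCh38.p14) by symbol, not by coordinates of the deposited build. Named genes were every member, RNF5, up to 4 listed genes of highest mean per list (all listed genes of a list where there were 4 or fewer), and the 5 genes most like DNAJA1 and DNAJB1. HSPA1A was named after its values were seen. The members, lists and tests were chosen with earlier results of these data known. Alternatives were other pseudocounts, filters and scalings, no trend, a replicate block and each library left out.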

Additional observations from a re-analysis of the deposited data

How the results depend on the processing

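The falls of DNAJA1, DNAJB1, DNAJB4 and DNAJB9 kept their direction and their side of the threshold in all 13 alternatives, with log2 fold changes from -1.23 to -0.97, from -2.55 to -2.25, from -1.09 to -0.66 and from -1.48 to -1.23. The largest adjusted p by limma was 0.00765, for DNAJB4 without knockdown library 3. The DNAJB1 to DNAJA1 difference ranged from -1.41 to -1.27 on the log2 scale. With a value of at least 5 asked for in 3 libraries, 654 of 660 tested genes were called in place of 1260 of 1290, since fewer genes were tested. Leaving out 1 library gave 1076 to 1161 called genes, and no filter gave 1787 of 1877. With the replicate number as a block, 1272 genes were called and DNAJA1 kept a log2 fold change of -1.07. Libraries of the same number did not deviate together (correlations -0.16, -0.07 and -0.08), and no library correlated best with its own number. These values gave no sign of pairing by number, and whether libraries shared a culture or batch was not tested. Scaling the knockdown values down by the median log2 shift of 0.173 gave -1.23 for DNAJA1 and -2.55 for DNAJB1. With depth unknown, no counting error can be given for DNAJB13, and 3 libraries a group cannot bring an exact test under 0.1.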
